A study of Mus musculus with 6 samples.

Results

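The genes described here encode, in the nucleus, the protein subunits of the last part of the mitochondrial respiratory chain, namely complex III, cytochrome c, complex IV and the ATP synthase (complex V). They were chosen by name: all rows of the deposited gene tables whose symbol starts with Uqcr, Cox4 to Cox8 or Atp5, or is Cyc1 or Cycs, leaving out the 7 rows whose symbol holds "-ps", the mark of a pseudogene. This took 47 of 55487 rows, of which 9 belong to complex III, 1 is cytochrome c, 19 belong to complex IV and 18 to complex V. One symbol, Atp5o, stands on 2 rows, and 1 row, Cox6c2, is annotated as a pseudogene without the mark in its symbol. RNA-seq libraries were made from CD8+ T cells of C57BL/6 mice after 48 h of treatment: 3 libraries had NaCl (the control) and 3 had itaconate at 5 mM. Itaconate is made by macrophages from a Krebs cycle intermediate and inhibits succinate dehydrogenase (complex II). The labels do not say if the replicates are different animals or cultures, so each p-value reflects only how much these libraries vary, and that variation may be technical. The labels also do not say whether the cells were activated.

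Complex III passes electrons from ubiquinol to the small carrier cytochrome c, and complex IV passes them from cytochrome c to oxygen. Both pump protons across the inner mitochondrial membrane, and complex V lets the protons flow back to make ATP. Each complex is built from a few subunits encoded by mitochondrial DNA and many small ones encoded in the nucleus, made in the cytosol and imported. T cells enlarge this machinery after activation, and respiration supports their proliferation and memory.

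None of these genes passed the test between itaconate and control cells. Levels are given as CPM (the authors' expected counts, scaled to library size), which compares libraries, or as the authors' TPM (also divided by transcript length), which compares genes. Of the 47 rows, 39 were abundant enough to be tested, and at an adjusted p under 0.05 (edgeR's quasi-likelihood test, Benjamini-Hochberg adjustment over 12350 genes) 0 were higher and 0 lower. Of all tested genes 12.0% were called, 6.68% higher and 5.36% lower. DESeq2 also called 0 of the 39, beside 1299 of the 21978 genes in that fit. With limma on log2(TPM + 1) the count was 0, beside 2.75% of all tested genes. Leaving out control replicate 3 gave 4 calls among the 39, beside 1400 of the 12543 genes in that fit. Leaving out itaconate replicate 1 gave 1, beside 1269 of 12774 genes. With genes of low count kept in the fit there were 4, beside 1993 of 21978 genes. All of these calls among the 39 were higher. At an unadjusted p under 0.05 the count was 5 of 39, against 26.5% of all tested genes. The 95% interval of the fold change lay within 1.5-fold in either direction for 31 of the 39 genes and within 2-fold for 37.

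Although no gene passed, the fitted differences leaned the same way. The log2 fold change was above 0 for 37 of the 39 genes, where it was above 0 for 51.4% of all tested genes, and its median was 0.10 against 0.01 over all tested genes. The median was 0.11 for the 9 complex III genes, 0.12 for the 12 tested complex IV genes and 0.08 for the 17 tested complex V genes. The CPM of all 3 itaconate libraries lay above all 3 control libraries for 8 of the 39 genes (16.8% of all tested genes) and below them for 0 (14.4%). This lean rested largely on 1 library: without control replicate 1 the median was 0.04, and 25 of 39 genes were above 0. Without itaconate replicate 2 the median was 0.06, and without control replicate 2 or itaconate replicate 3 it was 0.10 or 0.09. It rose to 0.16 without control replicate 3 and to 0.15 without itaconate replicate 1.

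Levels of most of the genes varied together from library to library, as the plot of levels relative to the control mean shows. The 47 rows together held 8438, 9176 and 9574 CPM in the controls and 9237, 10005 and 9854 CPM with itaconate, here and below in the order of replicates 1 to 3. The groups overlapped, since itaconate replicate 1 lay below control replicate 3. Control replicate 1 was the lowest of the 6 libraries for 34 of the 39 genes, where it was the lowest for 22.2% of all tested genes. Itaconate replicate 2 was the highest for 22 of them, where it was the highest for 20% of all tested genes. Control replicate 3 was the highest for 11 (14.6% of all tested genes) and itaconate replicate 3 for 6 (15.7%).

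**Figure D1:**
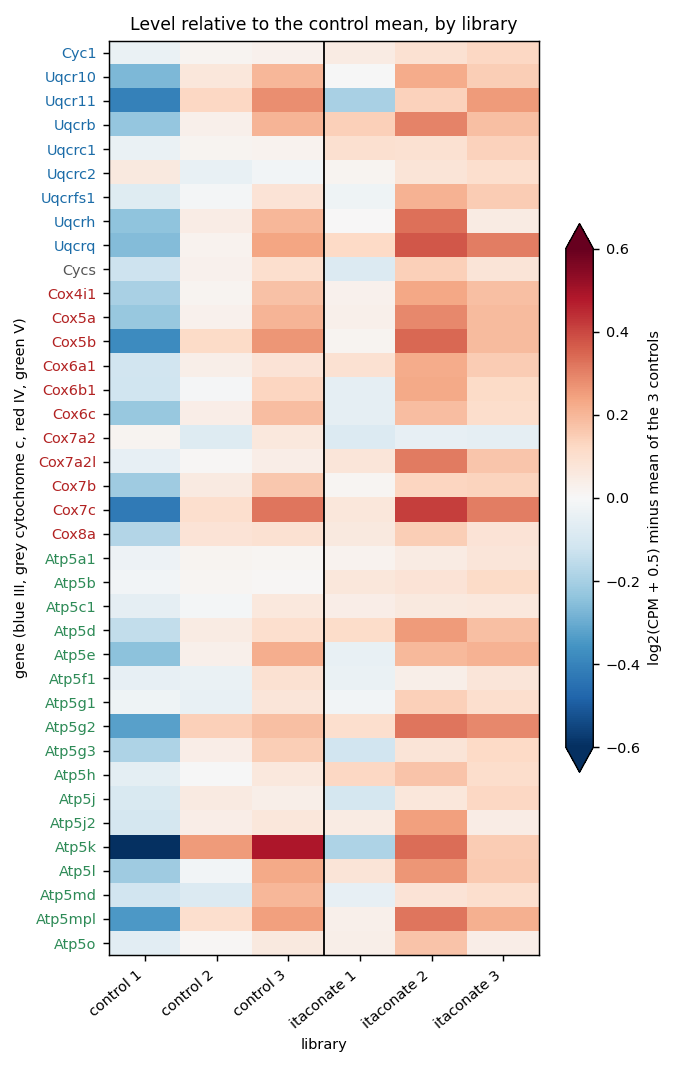
Level of each of 38 tested subunit genes (rows, coloured by complex) in each of the 6 libraries (columns), as log2(CPM + 0.5) minus the mean of the 3 control libraries; Cox6b2, with 2 to 19 reads, is not drawn. Control replicate 1 is the lowest library for 34 of the 39 tested genes, with a median over the genes of -0.12, against 0.02 to 0.19 in the other 5 libraries.

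**Figure D2:**
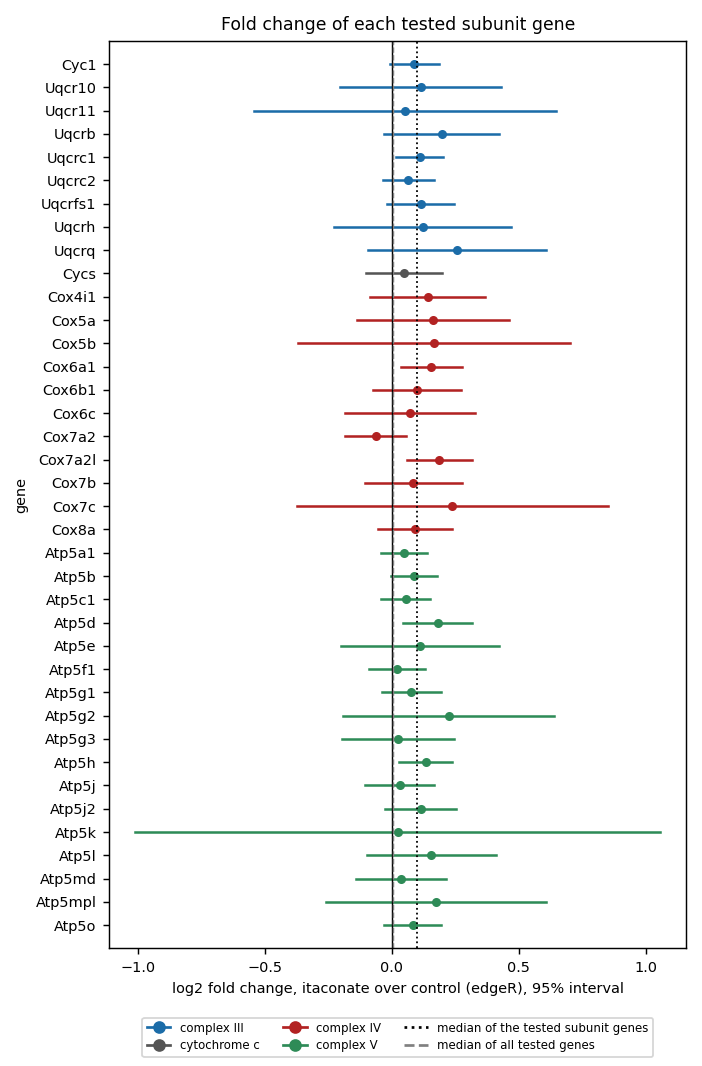
Log2 fold change of itaconate over control for the same 38 genes (points, coloured by complex) with 95% intervals from edgeR's fit. The dotted line is the median of the 39 tested subunit genes, 0.10, and the dashed line the median of all tested genes, 0.01; no gene passed an adjusted p of 0.05.

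Respiratory subunit genes are known to carry binding sites of nuclear respiratory factor 1 (NRF1), of the ETS factor GABP and of YY1 near their starts. Promoter windows from RefSeq (GRCm38.p6, 250 bases before to 50 after each start) matched 30 of the 39 tested genes. They were searched on both strands for an NRF1 motif and for CCGGAAGT (ETS) and AANATGGCG (YY1), none of which is part of another. The NRF1 letters stood in 8 of the 30 promoters (26.7%, against 5.19% of the promoters of 27025 genes), the ETS letters in 4 (13.3%, against 4.31%) and the YY1 letters in 3 (10%, against 2.76%). At least 1 of the 3 stood in 14 of them (46.7%, against 11.2%). The 27025 genes were not limited to genes tested here and were not matched for level or base composition. Each stretch below holds a match that lies before the RefSeq start and outside the gene's span in GENCODE M21. They come from 2 genes whose groups did not overlap (Cox6a1, Atp5h) and from 1 that varied widely between replicates (Uqcr11). All 3 genes lie on the minus strand, and the letters run 5′ to 3′ on that strand, with motif matches in capitals.
Cox6a1 (chr5:115349041-115349145, 187 to 83 bases before the start): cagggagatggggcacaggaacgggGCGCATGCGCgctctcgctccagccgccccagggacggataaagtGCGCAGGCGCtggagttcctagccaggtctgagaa
Atp5h (chr11:115420026-115420085, 166 to 107 bases before the start): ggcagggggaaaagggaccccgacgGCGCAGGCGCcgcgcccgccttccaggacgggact
Uqcr11 (chr10:80406855-80406912, 91 to 34 bases before the start): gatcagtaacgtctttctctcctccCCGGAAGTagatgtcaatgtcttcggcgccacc
The Cox6a1 stretch holds 2 NRF1 matches, the Atp5h stretch 1 NRF1 match and the Uqcr11 stretch 1 ETS match. A match is a run of letters and was not tested for binding.

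In complex III, all 9 genes were tested. Their summed CPM was 1324, 1431 and 1511 in the controls and 1455, 1600.5 and 1573 with itaconate, with overlap between the groups. Per length, the most abundant was Uqcr10, a small accessory subunit, at a mean of 724 TPM over the 6 libraries. It stood at 94.6, 119.7 and 131 CPM in the controls and 114, 134 and 127 CPM with itaconate, with overlap (0.11 ± 0.13, edgeR adjusted p 0.656). The least abundant was Uqcrc2, a core structural subunit, at 169 TPM. Of the catalytic subunits, Cyc1, cytochrome c1, which hands electrons to cytochrome c, stood at 208, 217 and 218 CPM in the controls and 222, 228 and 234 CPM with itaconate. The groups of Cyc1 did not overlap, but they were close (log2 fold change 0.09 ± 0.05, SE; edgeR adjusted p 0.231). Uqcrfs1, the Rieske iron-sulfur protein, was at 222, 231 and 246 CPM in the controls and 229, 269 and 259 CPM with itaconate (0.11 ± 0.06, adjusted p 0.264), with overlap.

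Uqcrc1, the partner of Uqcrc2 in the core of complex III, had the smallest adjusted p of the complex. It stood at 291, 302 and 304 CPM in the controls and at 320.0, 318 and 329 CPM with itaconate, with no overlap (0.11 ± 0.04, edgeR adjusted p 0.119). Uqcrc2 itself was at 231, 215 and 219 CPM in the controls and 224, 234 and 237 CPM with itaconate (0.06 ± 0.05). It was the only complex III gene whose lowest library was not control replicate 1. Uqcrq, a small subunit that borders cytochrome b, had the highest fold change of the 39 genes, at 110, 134 and 155 CPM in the controls and 144, 171 and 163 CPM with itaconate. Its control libraries spread more widely than the groups differed (0.26 ± 0.14, adjusted p 0.327), and it passed once the trend of levels with transcript length was removed from each library (0.16, adjusted p 0.0488). Uqcr11, another small subunit, ran from 35.1 to 56.7 CPM in the controls and from 40.7 to 55.7 CPM with itaconate. The other members, Uqcrb and Uqcrh, had log2 fold changes of 0.20 and 0.12, and their groups overlapped.

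Cycs encodes cytochrome c, which also starts the apoptosome when it leaves the mitochondrion. It stood at 143, 159 and 168 CPM in the controls and 147, 173 and 165 CPM with itaconate, with overlap (0.05 ± 0.07, edgeR adjusted p 0.726, 95% interval -0.10 to 0.20). Its TPM was 81.3, 129.6 and 119.6 in the controls and 121, 132 and 102 with itaconate. TPM depends on the authors' length for the gene, an average over isoforms weighted by their estimated abundance. That length was 2493 bases in control replicate 1, 2163 in itaconate replicate 3 and 1739 to 1931 in the others. Cyct, the testis form of cytochrome c, was counted at 0 in all 6 libraries.

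In complex IV, 12 of the 19 genes were tested. Their main forms are those of most tissues, and the forms known from muscle, lung or testis were at or near 0. Cox4i1, the regulatory subunit of most tissues, had 881 TPM on average, while Cox4i2, its form in lung and hypoxic cells, had 1 read in itaconate replicate 1 and 0 in the other 5 libraries, where a count of 0 allows up to 0.166 CPM (3 counts, counting error only). Cox6a1 had 914 TPM, and Cox6a2, the heart and muscle form, had 4 to 14 reads per library (1.06 TPM). Cox7a2 had 207 TPM, and Cox7a1, of heart and muscle, had 5 to 9 reads (2.38 TPM). Cox8a had 903 TPM, while Cox8b, Cox8c and Cox7b2 were at 0 in every library. Cox6c2, also at 0, is typed as a processed pseudogene in GENCODE M21, although its symbol passed the rule. Cox6b2, a testis form that was just abundant enough to be tested, had 9, 4 and 19 reads in the controls and 2, 9 and 12 with itaconate. These levels set the isoforms apart in both groups, with and without itaconate.

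The summed CPM of complex IV was 1543, 1808 and 1961 in the controls and 1798, 2072 and 1959 with itaconate. Itaconate replicates 1 and 3 lay within the range of the controls. Cox7a2l came closest to the threshold of all 39 genes. It encodes a factor (SCAF1) that joins complexes III and IV into a supercomplex, and in C57BL/6 mice the protein is known to be a shortened form. The gene lies on chromosome 17 (83501918 to 83517330, minus strand, GRCm38, GENCODE M21). Its level was 125, 129 and 132 CPM in the controls and 136, 160 and 145 CPM with itaconate, with no overlap (0.19 ± 0.06, edgeR adjusted p 0.0549, 95% interval 0.06 to 0.31). In TPM its groups did not overlap either (0.12, limma on log2(TPM + 1)).

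Cox6a1, an accessory subunit in the inner membrane, stood at 217, 242 and 249 CPM in the controls and 251, 275 and 262 CPM with itaconate. Its groups did not overlap in CPM or in TPM (0.16 ± 0.06, edgeR adjusted p 0.0857). Cox4i1 was at 302, 349 and 391 CPM in the controls and 352, 405 and 391.9 CPM with itaconate, with overlap (0.14 ± 0.10, adjusted p 0.413). Cox8a was at 197, 236 and 238 CPM in the controls and 232, 247 and 235 CPM with itaconate (0.09 ± 0.07, adjusted p 0.428). Cox7c, a small membrane subunit, had the widest relative spread of the complex apart from Cox6b2, at 89.5, 129 and 150 CPM in the controls and 126, 160 and 149 CPM with itaconate. Its fitted difference was about as large as its standard error (0.24 ± 0.23, adjusted p 0.6).

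Cox7a2 was, with Cox6b2, 1 of the 2 genes fitted below 0. It stood at 73.4, 68.7 and 75.8 CPM in the controls and 68.4, 70.2 and 69.9 CPM with itaconate (-0.06 ± 0.06, edgeR adjusted p 0.52). In TPM its groups did not overlap, at 232, 203 and 216 TPM in the controls and 200, 192 and 198 TPM with itaconate. Cox7a2 and Cox7a2l are paralogs, and all their expected counts were whole numbers. The ratio of Cox7a2l to Cox7a2 TPM, chosen after these values were seen, was 0.832, 0.957 and 0.881 in the controls and 1.005, 1.151 and 1.04 with itaconate. The remaining genes, of the accessory subunits Cox5a, Cox5b, Cox6b1, Cox6c and Cox7b, had log2 fold changes from 0.07 to 0.17, and their groups overlapped.

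In complex V, 17 of the 18 rows were tested, since the second Atp5o row was at 0. The summed CPM was 5427, 5779 and 5934 in the controls and 5837, 6159.7 and 6156 with itaconate, with overlap. The head of the enzyme, F1, holds the catalytic beta subunit, encoded by Atp5b, and the alpha subunit, encoded by Atp5a1. Atp5b was the most abundant of the 39 genes, at a mean of 3363 TPM. It stood at 1893, 1934 and 1924 CPM in the controls and 2007, 2031 and 2073 CPM with itaconate, without overlap (0.09 ± 0.04, edgeR adjusted p 0.2). Atp5a1 stood at 1299, 1341 and 1336 CPM in the controls and 1343, 1373 and 1392 CPM with itaconate (0.05 ± 0.04, adjusted p 0.532), also without overlap. These 2 abundant transcripts varied little between libraries, and their groups differed by small steps.

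Atp5d, the delta subunit of the central stalk, had the smallest adjusted p of complex V. It stood at 269.5, 309.8 and 320.2 CPM in the controls and 323, 357 and 339 CPM with itaconate, without overlap (0.18 ± 0.06, edgeR adjusted p 0.0843). Atp5d overlaps the gene Cbarp on the other strand over 2204 bases, and the strand setting of the counting is not given in the sources used here. Atp5h, subunit d of the side stalk, was at 136, 141 and 148 CPM in the controls and 154, 159 and 152 CPM with itaconate, without overlap (0.13 ± 0.05, adjusted p 0.0955). Atp5f1, subunit b of the same stalk, ran from 298 to 329 CPM in the controls and stood at 301, 316 and 324 CPM with itaconate (0.02 ± 0.05, adjusted p 0.838). Atp5k, the short subunit e that holds pairs of the enzyme together, was the least abundant in CPM apart from Cox6b2 and stood at 14.8, 30.2 and 35.5 CPM in the controls and 22.1, 31.9 and 28.0 CPM with itaconate. No difference was detectable for it at this spread (95% interval of the log2 fold change -1.01 to 1.06).

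Subunit c, which forms the rotating ring in the membrane, is made from 3 genes whose mature proteins are known to be alike. Atp5g1 was at 147, 145 and 157 CPM in the controls and 148, 165 and 160 CPM with itaconate. Atp5g2 was at 194, 268 and 276 CPM in the controls and 261, 303 and 297 CPM with itaconate (0.22 ± 0.16, edgeR adjusted p 0.461). Atp5g3 was at 287, 335 and 362 CPM in the controls and 301, 344 and 355 CPM with itaconate (0.02 ± 0.09). The groups of all 3 overlapped. Of their summed TPM, Atp5g3 gave 42.1% ± 1.1 in control and 40.2% ± 1.1 in itaconate cells, Atp5g2 33.6% ± 1.5 and 36.1% ± 0.63, and Atp5g1 24.3% ± 2.0 and 23.8% ± 0.51 (SD, n = 3). The order of the 3 genes was the same in all 6 libraries. The other 8 tested genes, among them Atp5c1 of the central stalk and Atp5o of the side stalk, had log2 fold changes from 0.03 to 0.17, and their groups overlapped.

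These transcripts are short. The effective length, the number of positions at which a fragment can start, was under 500 bases for 23 of the 39 genes (59.0%) and for 5.67% of all tested genes. Gene length less effective length was largest in control replicate 1, at 259 bases, against 229 to 239 bases in the remaining libraries. Short genes in general showed the same lean. The median log2 fold change of all tested genes was 0.11 under 300 bases, 0.10 from 300 to 500 bases, 0.03 from 1000 to 2000 bases and -0.05 above 3000 bases. For the subunit genes it was 0.07 (9 genes), 0.13 (14 genes) and 0.08 (6 genes) in the first 3 of these ranges, as the plot of fold change against length shows.

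The 700 tested genes under 500 bases also were lowest in control replicate 1 and highest in itaconate replicate 2. Their median level relative to the control mean was -0.12, 0.04 and 0.10 (log2) in the controls and 0.02, 0.17 and 0.12 with itaconate. For the 39 subunit genes the same medians were -0.12, 0.02 and 0.13 in the controls and 0.02, 0.19 and 0.14 with itaconate. With a trend on effective length removed from each library, the median log2 fold change of the subunit genes was 0.02, and 24 of 39 were above 0, against 49.7% of all tested genes. With each library's effective lengths as an offset instead, it was 0.09, with 35 of 39 above 0. On log2(TPM + 1) values it was 0.02, with 26 of 39 above 0, while the median of all tested genes was -0.05. The Spearman correlation between fold change and effective length was -0.19 over all 12350 tested genes, which share libraries and are not independent. Over the 39 subunit genes it was -0.13, and 0.35 without control replicate 1.

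**Figure D3:**
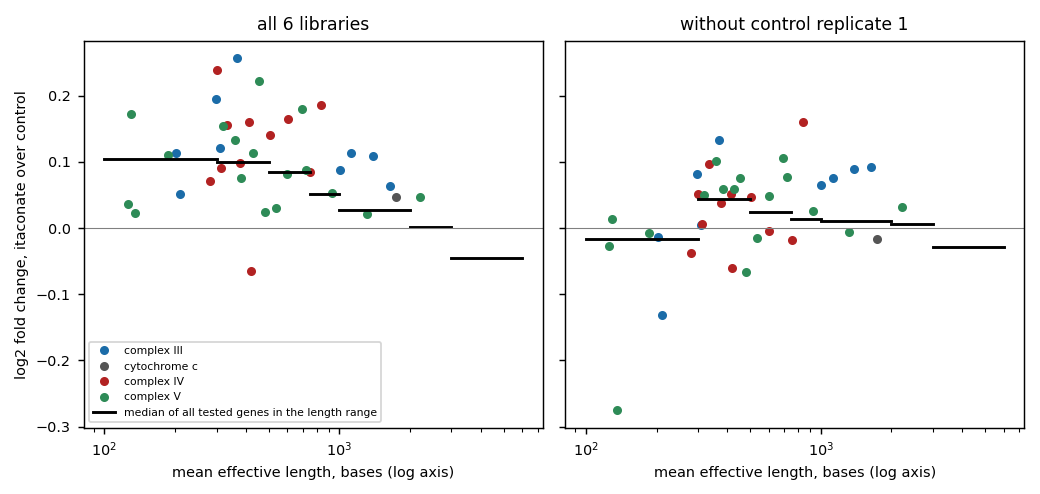
Log2 fold change of itaconate over control against mean effective length (log axis) for 38 tested subunit genes (points, coloured by complex), with all 6 libraries (left) and without control replicate 1 (right). Black bars are the medians of all tested genes in each range of length: they run from 0.11 for the shortest to -0.05 for the longest genes on the left, while on the right 5 of the 7 are above 0 and they lie between -0.03 and 0.04.

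Of the 6 subunits of these complexes that mitochondrial DNA encodes, 1 fell and 5 did not pass, with a median log2 fold change of -0.30. Of all tested genes 12.0% were called, 5.36% lower. mt-Co2, the subunit of complex IV that takes electrons from cytochrome c at a copper site, fell from 397, 327 and 337 CPM in the controls to 255, 238 and 247 CPM with itaconate (log2 fold change -0.52 ± 0.07, edgeR adjusted p 0.000554). All 3 itaconate libraries were below all 3 controls, as for 14.4% of all tested genes, and the call held without any 1 library. With a trend on length removed the log2 fold change was -0.62 and did not pass (adjusted p 0.0883). Some of its expected counts were not whole, so part of its reads was shared with other rows, and its level is uncertain to that extent. mt-Cytb, cytochrome b of complex III, was at 1832, 1274 and 1503 CPM in the controls and 1117, 1017 and 1007 CPM with itaconate, without overlap (-0.55 ± 0.14, adjusted p 0.0695). mt-Co1 (6522 ± 1401 and 5908 ± 386 CPM), mt-Co3 (418 ± 132 and 415 ± 82), mt-Atp6 (195 ± 36 and 142 ± 31) and mt-Atp8 (21.7 ± 5.4 and 20.8 ± 0.78) did not pass, and their groups overlapped (SD, n = 3). The share of counts in all mitochondrially encoded genes was 1.94% in control replicate 1 and 1.252% to 1.55% in the other libraries.

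Among genes that build complex IV, 1 of 31 tested fell, 1 rose and 29 did not pass, against 12.0% of all tested genes called. Sco1, a copper chaperone that helps to load the copper site of the protein that mt-Co2 encodes, fell from 48.1, 50.5 and 51.9 CPM in the controls to 38.6, 42.2 and 40.3 CPM with itaconate (-0.31 ± 0.06, edgeR adjusted p 0.0055). Sco2, its paralog, was at 14.4 ± 1.6 and 13.3 ± 2.3 CPM (SD, n = 3; -0.11 ± 0.13, adjusted p 0.63). Apopt1, an assembly factor that protects complex IV from oxidative damage, rose from 24.6 ± 1.9 to 31.2 ± 3.2 CPM (adjusted p 0.0226), a call lost without control replicate 1 (0.0719), control replicate 2 (0.105), itaconate replicate 2 (0.115) or itaconate replicate 3 (0.0501). None of 10 assembly factors of complex III passed (median 0.13). The copper chaperone Cox17 and the assembly factor Surf1 had log2 fold changes of 0.22 ± 0.34 and -0.02 ± 0.07.

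Among 10 genes that assemble or regulate complex V there was 1 that rose, and 9 did not pass, again near the 12.0% of all tested genes. The riser was Atpif1, the inhibitor that stops the ATP synthase from running backwards, from 54.8, 64.4 and 72.2 CPM in the controls to 77.2, 91.2 and 81.6 CPM with itaconate (0.38 ± 0.10, edgeR adjusted p 0.0377). Its groups did not overlap, but the call was lost without control replicate 2 (0.106), itaconate replicate 2 (0.111) or itaconate replicate 3 (0.105). Of 13 genes of cytochrome c maturation, release and the apoptosome, 1 rose and 1 fell. Hccs, which attaches heme to cytochrome c and c1, fell from 67.3, 68.7 and 69.1 CPM to 54.6, 59.9 and 60.3 CPM with itaconate (-0.23 ± 0.06, adjusted p 0.0204), a call lost without control replicate 2 (0.0705) or itaconate replicate 1 (0.0767). The riser was Htra2, a protease that opposes inhibitors of apoptosis, from 62.8 ± 7.7 to 75.0 ± 1.9 CPM (0.25 ± 0.08, edgeR adjusted p 0.0485), and of the 6 fits that leave out 1 library only that without control replicate 3 called it (0.0736 to 0.19 in the other 5). Ndufa4, now counted as a subunit of complex IV, was at 117 ± 6.3 and 130 ± 2.6 CPM, without overlap (0.15 ± 0.05, adjusted p 0.0785).

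**Figure D4:**
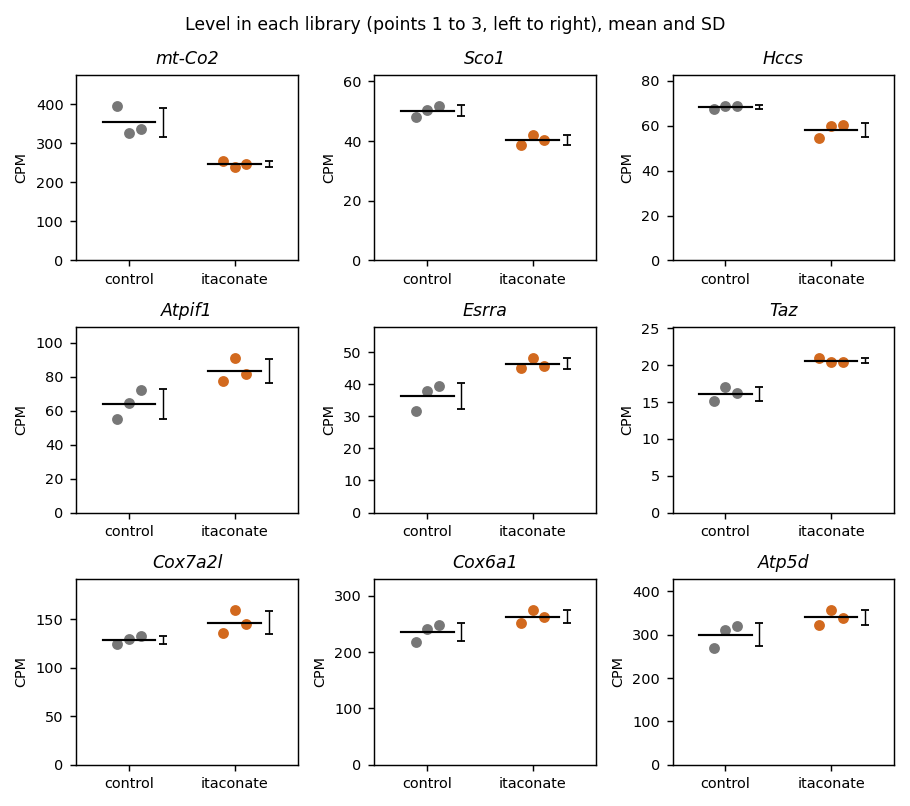
CPM in each library for mt-Co2, for 5 of the partner genes that passed the test and for 3 subunit genes. The subunit genes are those with the smallest adjusted p (Cox7a2l, Cox6a1, Atp5d). Rbpj, Apopt1 and Htra2, which also passed, are not drawn. Points are libraries, black lines the mean of 3 and whiskers the SD; axes start at 0. mt-Co2, Sco1 and Hccs lie lower with itaconate, Atpif1, Esrra and Taz higher, and the 3 subunit genes differ by 0.16 to 0.19 (log2), less than the other 6.

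Among 17 tested regulators of respiratory genes there were 2 that rose, 0 that fell and 15 that did not pass, a share close to the 12.0% called over all tested genes. Esrra, a nuclear receptor that activates respiratory genes, rose from 31.6, 37.8 and 39.5 CPM in the controls to 45.1, 48.3 and 45.6 CPM with itaconate (0.35 ± 0.08, edgeR adjusted p 0.0118), a call lost without itaconate replicate 2 (0.0579), with the effective length offset (0.0648) and with a length and GC trend removed (0.0582). Rbpj, the DNA-binding factor of Notch signalling, rose from 269 ± 18 to 345 ± 29 CPM (0.36 ± 0.07, edgeR adjusted p 0.0049). With a trend on length removed its log2 fold change was 0.42 and did not pass (adjusted p 0.0771). Of the factors whose motifs were searched, none passed. Nrf1 was at 81.8 ± 1.4 and 78.5 ± 1.6 CPM, Gabpa at 95.4 ± 2.3 and 83.7 ± 7.7 CPM (adjusted p 0.071) and Yy1 at 165 ± 2.8 and 156 ± 5.4 CPM. All 3 itaconate libraries lay below all 3 controls for each of these factors, as for 14.4% of all tested genes; the 3 were singled out after their values were seen. Tfam, which packs and transcribes mitochondrial DNA, was at 78.2 ± 1.6 and 77.0 ± 1.9 CPM, and the coactivator Ppargc1a was too rare to be tested. Of 15 genes of supercomplexes and cristae, 1 rose, Taz (tafazzin, which remodels the membrane lipid cardiolipin), from 16.1 ± 0.92 to 20.6 ± 0.34 CPM (adjusted p 0.0156), and it lost its call without control replicate 1 (0.052). An annotated gene lies on the opposite strand of Atpif1, Apopt1, Hccs, Htra2, Esrra, Rbpj and Taz, but not of mt-Co2 or Sco1. Of these 9 called genes, limma on log2(TPM + 1) also called mt-Co2 and Sco1 and did not call the other 7 (adjusted p 0.051 to 0.267). Without a filter on low counts, the same limma fit called neither mt-Co2 (adjusted p 0.106) nor Sco1 (0.0852), and 59 of 21981 genes in all. With the effective length offset, edgeR did not call Taz (adjusted p 0.166), Htra2 (0.134), Hccs (0.0784), Esrra (0.0648) or Apopt1 (0.0633).

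Total expected counts lay between 18280217 and 31643408 per library. The 10 CD8 T cell markers were all tested and together held 2730 to 2837 CPM in control and 2962 to 3014 CPM in itaconate libraries, of which Cd8a alone passed (0.38 ± 0.05, edgeR). Of 6 B cell genes, 0 passed, 3 were fitted above 0 and 3 below (log2 fold change -0.92 to 0.31). Ighm, the heavy chain of IgM, lay at 269.7 ± 11 and 294 ± 15 CPM, and the other 5 summed to 11.8 to 19.6 and 9.85 to 21.6 CPM. Of 5 CD4 T cell genes only Foxp3, the factor of regulatory T cells, passed, from 1.87 ± 0.63 to 12.4 ± 2.3 CPM, while Cd4 lay at 3.22 ± 1.3 and 3.72 ± 1.9 CPM. All 5 together summed to 940 to 988 CPM in control and 936 to 1029 CPM in itaconate libraries, with overlap. Summed levels of 10 myeloid markers lay at 2.26 to 3.04 and 2.94 to 6.99 CPM and those of 6 erythroid markers at 0.891 to 1.305 and 0.172 to 4.27 CPM, with overlap. The 4 platelet markers summed to 0.794 to 0.918 and 0.495 to 1.22 CPM, nearly all Itga2b, with Pf4 and Ppbp at 0. Of 5 NK cell markers only 1, Eomes, which CD8 T cells also express, was abundant enough to be tested. It passed (0.26, edgeR adjusted p 0.0477). The list, Eomes included, summed to 96.4 to 108 CPM in control and 109.9 to 138 CPM in itaconate libraries, without overlap. The 6 stroma markers summed to 23.4 to 28.7 and 20.8 to 22.5 CPM, also without overlap and nearly all Pecam1, which did not pass (adjusted p 0.0657). The part of other cell types in the results was not tested, and in bulk RNA fewer cells of a type and less RNA per cell cannot be told apart.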

How the data were processed

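RNA-seq gene tables of 3 control and 3 itaconate libraries of mouse CD8+ T cells were used. The authors deposited expected counts per gene (estimated, not always whole) and TPM, with length and effective length, per the file headers, whose column names are those of RSEM. Bowtie 0.12.2 and the builds mm8 and mm10 appear, without roles, per the submitters' processing notes. For the counter's version, annotation and strand setting, the sources used here give nothing. Identifiers were matched to GENCODE M21 (GRCm38), which held 99.83% of them.

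Expected counts were rounded and tested with edgeR 4.0.16 (quasi-likelihood test, TMM scaling, which centres libraries on the bulk of genes) in R 4.3.3, on genes kept by filterByExpr (minimum count 10, minimum total 15). DESeq2 1.42.0 and limma 3.58.1 on log2(TPM + 1) were alternatives. The procedure was run on simulated counts in which all genes shared the same spread between replicates, unlike real genes. There edgeR called 28% of 50 genes planted at a 1.25-fold change and 84% of 50 planted at 1.5-fold. Length trends were removed with a loess curve (span 0.3) per library. Values by library are given for the 2 smallest adjusted p, the highest and lowest TPM in each complex, the 3 highest and lowest fold changes, called partner genes and a list of subunits with known roles or tissue forms; Uqcr11, Sco2, Cox17, Surf1, Ndufa4, Nrf1, Gabpa, Yy1, Tfam and the marker genes singled out were added after their values were seen. The members and lists were chosen with earlier results of these data known. One marker gene is not reported here.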

Additional observations from a re-analysis of the deposited data

How the results depend on the processing

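The 39 subunit genes had 0 calls with DESeq2 (beside 1299 of 21978 genes) and with DESeq2 size factors in edgeR (beside 1475 of 12350). They also had 0 with the authors' effective length as an offset and in the 3 limma fits on TPM. Calls appeared without a filter on low counts (4, all higher: Atp5d, Uqcrb, Cox7a2l and Cox6a1), beside 1993 of 21978 genes. With the length trend removed there was 1, higher, beside 1938 of 12350 genes. A length and GC trend, an alternative chosen after seeing the data, was also removed. That gave 2 calls (higher: Uqcrb and Cox7a2l), beside 1723 of 12350 genes. Leaving out 1 library gave 0 to 4 calls, all higher. There were 4 without control replicate 3 (Atp5d, Uqcrb, Atp5l and Uqcrq), beside 1400 of 12543 genes. Without itaconate replicate 1 there was 1 (Cox7a2l), beside 1269 of 12774 genes, and there were 0 without each of the others. The median log2 fold change then ran from 0.04 to 0.16. No fit reversed a called direction.

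With the replicate number as a block, 8 of the 39 subunit genes were called, all higher, and 2419 of all 12350 genes (1315 higher, 1104 lower). With the block and the length trend, 5 were called, 4 higher and 1 lower (Cox7a2), and 2543 of all 12350 genes (1330 higher, 1213 lower). The labels give no sign that a number marks a shared source, so the numbers were not taken to pair libraries. Same-numbered replicates correlated at 0.154, 0.0398 and 0.0308 in their deviations from the group means. Differently numbered ones correlated at -0.139, -0.134, -0.0238, -0.0177 and -0.013, and at 0.102 for control replicate 3 with itaconate replicate 2. Whether same-numbered libraries share a source was not tested.

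Over all genes, the effective length offset left 567 calls (325 higher, 242 lower). limma left 340 (133 higher, 207 lower) on log2(TPM + 1), 356 (141 higher, 215 lower) on log2(TPM + 0.1) and 59 (30 higher, 29 lower) without a filter. The share of higher calls was 55.5% in edgeR and 39.1% in limma on log2(TPM + 1). Leaving out 1 library left 726 to 1400 calls, 407 to 707 higher and 319 to 693 lower, the fewest without control replicate 2. The causes were not tested. With 3 libraries a group, differences inside the stated intervals were not detectable.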

Other observations

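The 7 pseudogene rows left out by name held 0 to 2 reads each over all 6 libraries, namely 2 for Atp5l2-ps, 1 for Atp5l-ps2 and 0 for the other 5. Of the 39 tested subunit genes, 13 have an annotated gene on the opposite strand and 9 had expected counts that were not whole (by more than 0.001) in at least 1 library. The authors' averaged length of Cycs varied by 43.3% between libraries.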
